A study of Mus musculus with 6 samples.

Results

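Aminoacyl-tRNA synthetases are the enzymes that join each amino acid to its tRNA before the ribosome can use it. Most amino acids have a cytosolic enzyme and a separate mitochondrial enzyme, both encoded in the nucleus. Mammalian mitochondrial enzymes mostly carry a name that ends in 2. Several cytosolic enzymes are held together in the multi-synthetase complex by scaffold proteins, among them those encoded by Aimp1 and Aimp2. When amino acids run short, uncharged tRNA activates the kinase GCN2, translation of the transcription factor ATF4 rises, and ATF4 is known to raise transcription of many cytosolic synthetase genes.

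The 38 genes examined were chosen by name: 20 cytosolic synthetases, 16 mitochondrial synthetases and the 2 scaffold genes. Of these, 36 had a probe set of their own on the array, out of 19937 genes measured: 18 cytosolic, all 16 mitochondrial and both scaffold genes. Aars shares its probe set with another gene and Dars is not in the probe annotation used, so neither was analysed here. No filter on low signals was applied, so all 36 measured genes were tested.

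The RNA came from pooled polysome fractions of clone #483, which is a T-ALL (T-cell acute lymphoblastic leukaemia) line from C57BL6 mice. One group of 3 arrays holds cells given 4EGI-1 at 100 µM for 2 h. This compound disrupts the eIF4E-eIF4G interaction that recruits capped mRNAs to ribosomes. The other group of 3 arrays holds the controls. The controls are titled untreated, while the series title and design text name DMSO, so whether they received solvent is not settled. The design text calls the samples of a group biological replicates, and all come from 1 clone. Total RNA was not analysed here, so a change in the amount of an mRNA and a change in its loading on polysomes cannot be told apart. In such bulk RNA, fewer cells of a type and less RNA per cell cannot be told apart either.

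The arrays had median log2 signals of 6.38 to 6.43 over all probe sets, and their number limits the precision. Of the T-cell markers listed, 8 of 10 were measured, with log2 signals of 9.04 to 12.36 in 4EGI-1 arrays and 8.83 to 12.52 in untreated arrays. Of these 8, 3 were lower with 4EGI-1 and 0 higher by the test described below, beside 11.5% of all genes each way. The summed log2 signal of the 8 was 88.4 to 88.7 in 4EGI-1 arrays and 90.0 to 90.2 in untreated arrays. Markers of B cells (4 of 5 measured), myeloid cells (5 of 5), erythroid cells (3 of 5) and stromal or endothelial cells (5 of 5) gave log2 signals of 4.35 to 8.91 in 4EGI-1 arrays and 4.19 to 9.03 in untreated arrays, and 0 of these 17 genes passed the test. The part of the T-cell marker shift in the results below was not tested.

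After 4EGI-1 the polysomal mRNAs of 8 of 18 cytosolic synthetases rose and 0 fell, while 10 did not pass the test. The mRNA of leucyl-tRNA synthetase, Lars, rose most among the synthetases, to 2.78 times its untreated level, followed by Eprs, which charges both glutamate and proline tRNAs, at 2.25 times. Among 16 mitochondrial synthetases 5 rose and 1 fell, while 10 did not pass, and none rose by more than the 1.32-fold of Lars2. The scaffold genes Aimp1 and Aimp2 did not pass. The test was limma's moderated test at an adjusted p under 0.05, by which 11.5% of all 19937 genes were higher and 11.5% lower. The share called was 44.4% higher for cytosolic and 31.2% higher for mitochondrial synthetases.

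**Figure D1:**
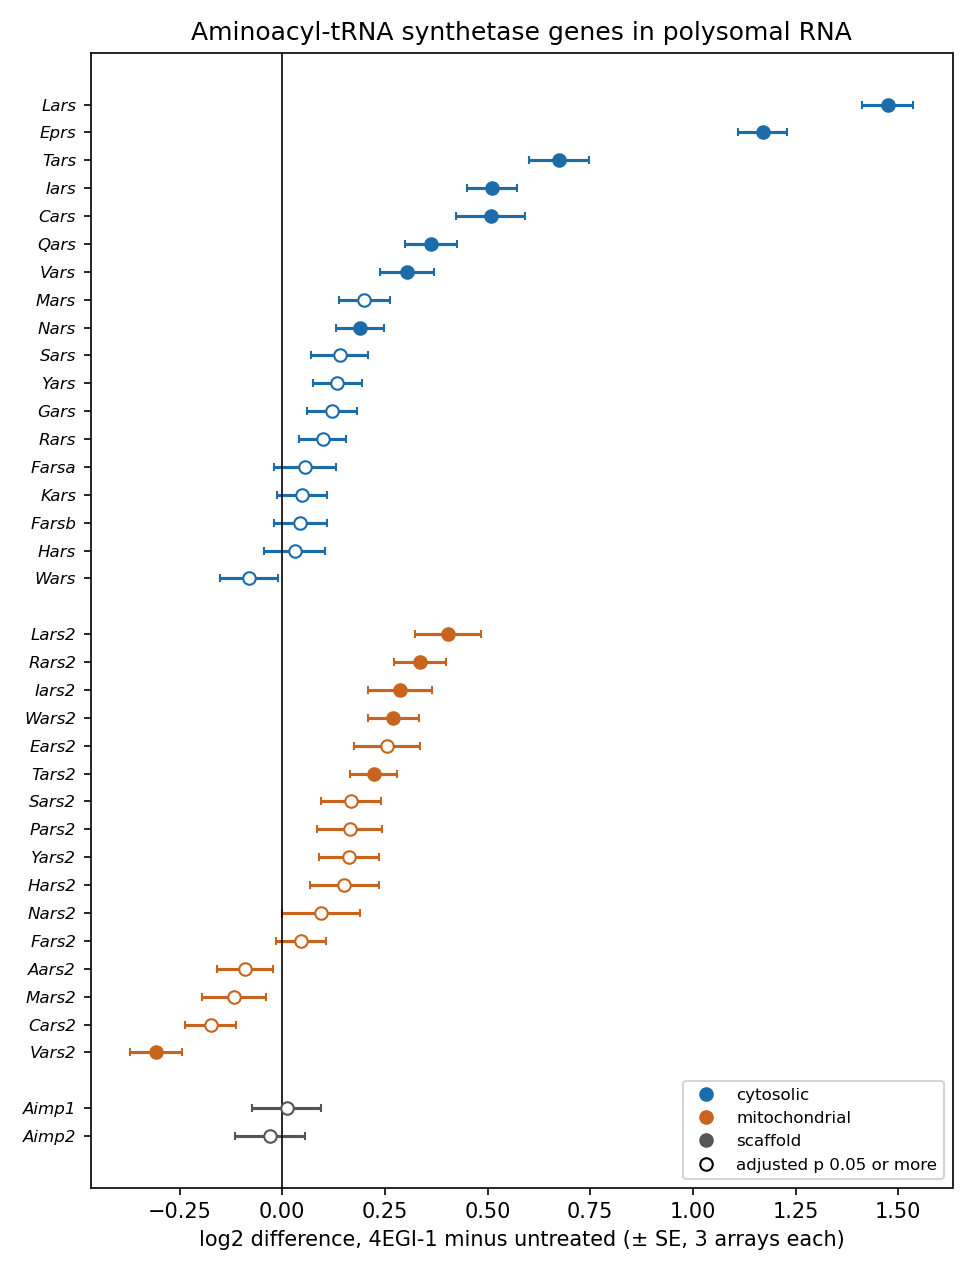
Log2 difference (4EGI-1 minus untreated, horizontal axis) of the 36 measured genes, with bars of 1 SE from 3 arrays per group. Filled points passed at an adjusted p under 0.05. The cytosolic genes run from -0.08 (Wars) to 1.47 (Lars), the mitochondrial genes from -0.31 (Vars2) to 0.40 (Lars2), and the scaffold genes lie near 0.

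The median log2 difference was 0.16 for cytosolic and 0.16 for mitochondrial synthetases, beside -0.03 for all genes. The similar medians cover different spreads. A difference of 0.5 or more on the log2 scale was reached by 5 of 18 cytosolic and 0 of 16 mitochondrial genes, and by 4.89% of all genes. Differences were above 0 in 17 of 18 cytosolic and 12 of 16 mitochondrial genes, and in 8707 of all 19937 genes. All 4EGI-1 arrays lay above all untreated arrays in 12 cytosolic and 8 mitochondrial genes, an order seen in 17.0% of all genes. The opposite order occurred in 0 cytosolic and 2 mitochondrial genes and in 20.8% of all genes. Array by array, the median log2 signal of the cytosolic set was 10.86, 10.82 and 10.91 with 4EGI-1 and 10.59, 10.46 and 10.54 untreated. That of the mitochondrial set was 8.22, 8.14 and 8.17 with 4EGI-1 and 8.11, 8.05 and 8.14 untreated. The 2 groups of arrays lay apart for the cytosolic set, while for the mitochondrial set the lowest treated and the highest untreated array met at 8.14. Synthetase mRNAs gave mostly bright signals, and bright genes were called more often: in a fit limited to genes at or above the median of all probe sets, 21.2% of genes were higher, beside 9 of 18 cytosolic and 6 of 16 mitochondrial synthetases.

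**Figure D2:**
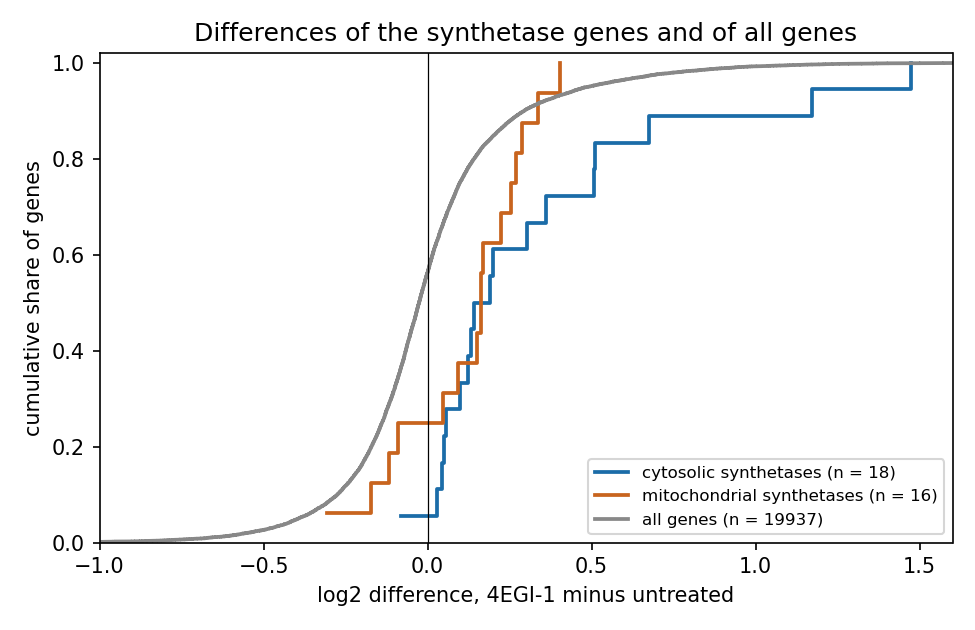
Cumulative share of genes (vertical axis) by log2 difference, 4EGI-1 minus untreated (horizontal axis), for 18 cytosolic synthetases, 16 mitochondrial synthetases and 19937 genes in all. Both synthetase curves lie to the right of the curve of all genes over most of their range, and the cytosolic curve has a tail that ends at 1.47.

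Promoters of 27 of the 36 genes were found in RefSeq windows (GRCm38.p6) that run 250 bases before to 50 bases after a start site. No window was matched for 4 of the 8 risen cytosolic genes, Lars, Cars, Vars and Nars, so these were not searched. The others were searched on both strands for TGATGNAA, the letters used here for the C/EBP-ATF element that ATF4 binds, and for the E-box CACGTG, bound by Myc among other factors. In no member did matches of the 2 motifs overlap. The C/EBP-ATF letters were found in 4 of 11 cytosolic genes (Iars, Tars, Gars and Yars), in 0 of 14 mitochondrial genes and in 3.62% of the 15562 genes of the fit that had a window (3.97% of all 32851 windows). The E-box was found in Farsb, Iars, Tars and Ears2, which is 4 of 27 members, beside 9.52% of genes of the fit and 7.15% of windows. The 4 windows with C/EBP-ATF letters are shown because these genes include both risen and not risen members, and Eprs because its rise was the second largest. Each line runs 5′ to 3′ along the gene's strand from 100 bases before to 20 bases after the start, with the C/EBP-ATF letters in capitals.
Iars, chr13:49682030-49682149, plus strand: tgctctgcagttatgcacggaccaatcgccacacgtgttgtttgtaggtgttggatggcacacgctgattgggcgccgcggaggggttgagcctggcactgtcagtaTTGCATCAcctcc
Tars, chr15:11399639-11399758, minus strand: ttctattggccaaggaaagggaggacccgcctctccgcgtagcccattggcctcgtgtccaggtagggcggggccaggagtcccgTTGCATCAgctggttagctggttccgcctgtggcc
Gars, chr6:55037901-55038020, plus strand: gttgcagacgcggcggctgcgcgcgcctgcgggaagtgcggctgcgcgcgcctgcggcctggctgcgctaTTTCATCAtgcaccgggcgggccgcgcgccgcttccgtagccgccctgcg
Yars, chr4:129189803-129189922, plus strand: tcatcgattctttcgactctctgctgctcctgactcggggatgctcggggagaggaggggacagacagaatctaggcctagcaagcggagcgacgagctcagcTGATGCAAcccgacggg
Eprs, chr1:185362944-185363063, plus strand: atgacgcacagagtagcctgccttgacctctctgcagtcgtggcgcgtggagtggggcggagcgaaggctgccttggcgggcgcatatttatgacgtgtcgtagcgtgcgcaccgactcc

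Counted in the printed direction, with the start base as position 1, the C/EBP-ATF letters begin at 8 in Iars, 4 in Yars, -15 in Tars and -30 in Gars. Iars and Tars share the same 8 letters, TTGCATCA. Of the genes with a window, 9 rose, and 2 of those 9 held the letters, beside 2 of the 18 that did not rise. The match is a description of letters and was not tested against the array values.

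The enzymes of the multi-synthetase complex included Lars and Eprs, the 2 genes with the largest differences. Of 7 measured, 4 passed as higher and 0 as lower, beside 11.5% of all genes each way. Their median log2 difference was 0.36, beside -0.03 for all genes. Lars had log2 signals of 11.80, 11.74 and 11.82 in 4EGI-1 arrays and 10.24, 10.34 and 10.35 in untreated arrays. The lowest 4EGI-1 array stood more than 1 log2 unit above the highest untreated array, and the difference was 1.47 ± 0.06 (SE; adjusted p = 2.78e-05). Eprs had 11.85, 11.79 and 11.87 with 4EGI-1 and 10.64, 10.71 and 10.65 untreated. Its groups were also more than 1 log2 unit apart, with a difference of 1.17 ± 0.06 (SE; adjusted p = 3.34e-05).

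Iars, the isoleucyl-tRNA synthetase gene, had 2 probe sets and was read from the brighter one. That probe set had log2 signals of 12.59, 12.51 and 12.53 with 4EGI-1 and 12.04, 11.99 and 12.07 untreated, a difference of 0.51 ± 0.06 (SE; adjusted p = 0.000638). The other Iars probe set had 11.66, 11.53 and 11.62 with 4EGI-1 and 10.95, 10.89 and 10.95 untreated, a difference of 0.67. Both probe sets separated the groups in the same direction. Qars, which charges glutamine tRNA, had 9.66, 9.65 and 9.67 with 4EGI-1 and 9.21, 9.33 and 9.36 untreated. The treated arrays were nearly equal and all above the untreated ones, with a difference of 0.36 ± 0.06 (SE; adjusted p = 0.00428).

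The other measured enzymes of the complex did not pass. The methionyl enzyme gene Mars, named Mars1 in the annotation, had 9.91, 9.79 and 9.90 with 4EGI-1 and 9.64, 9.66 and 9.69 untreated. Its groups did not overlap, and its difference of 0.20 ± 0.06 (SE) lay just outside the threshold (adjusted p = 0.0508). The Mars1 gene overlaps Ddit3 by position in the RefSeq table. Strands, exons and probe positions were not compared, so whether array values mix such overlapping genes is not known. Such overlaps also exist for genes that passed: Lars with the pseudogene Rps19-ps4, Iars, Cars, Lars2 and Wars2 with predicted or microRNA genes, Rars2 with Orc3, and Iars2 with Rab3gap2 and microRNA genes. Rars (arginine) differed by 0.10 ± 0.06 and Kars (lysine, also used in mitochondria) by 0.05 ± 0.06 (SE). The arrays of Rars did not overlap between groups, while those of Kars did.

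The scaffold genes showed no separation of the groups. Aimp1 had 10.41, 10.42 and 10.63 with 4EGI-1 and 10.58, 10.45 and 10.40 untreated, a difference of 0.01 ± 0.08 (SE; adjusted p = 0.948). Aimp2 had 10.54, 10.35 and 10.60 with 4EGI-1 and 10.63, 10.45 and 10.50 untreated, a difference of -0.03 ± 0.08 (SE; adjusted p = 0.853). In both genes the ranges of the groups overlapped. Leaving out 1 array gave differences of -0.06 to 0.06 for Aimp1 and -0.08 to 0.04 for Aimp2, so neither has a settled sign.

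Among cytosolic enzymes outside the complex, 4 of 11 measured passed as higher and 0 as lower, beside 11.5% of all genes each way. Their median log2 difference was 0.13, beside -0.03 for all genes. The threonyl enzyme gene Tars had 11.71, 11.64 and 11.77 with 4EGI-1 and 10.96, 10.98 and 11.14 untreated, a difference of 0.67 ± 0.07 (SE; adjusted p = 0.000441). The cysteinyl enzyme gene Cars had 10.01, 9.92 and 10.07 with 4EGI-1 and 9.64, 9.36 and 9.49 untreated, a difference of 0.51 ± 0.08 (SE; adjusted p = 0.00333). Tars and Cars thus rose by amounts close to that of Iars, with every treated array above every untreated one.

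The valyl enzyme gene Vars had 9.23, 9.31 and 9.38 with 4EGI-1 and 8.99, 8.97 and 9.05 untreated, a difference of 0.30 ± 0.07 (SE; adjusted p = 0.0109). The asparaginyl enzyme gene Nars had 12.22, 12.26 and 12.26 with 4EGI-1 and 12.06, 12.03 and 12.09 untreated, a difference of 0.19 ± 0.06 (SE; adjusted p = 0.0478). Neither gene's groups overlapped. The call of Nars was lost without any 1 of the 6 arrays, with adjusted p = 0.0804 to 0.133. It was also lost with the replicate number as a block (adjusted p = 0.0862), with every probe set in the fit (adjusted p = 0.0723) and with arrays centred on their median (adjusted p = 0.0689).

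The other 7 genes outside the complex did not pass. Their log2 differences were 0.14 for Sars (serine), 0.13 for Yars (tyrosine), 0.12 for Gars (glycine, also used in mitochondria), 0.06 and 0.04 for Farsa and Farsb, the subunits of the phenylalanyl enzyme, 0.03 for Hars (histidine) and -0.08 for Wars (tryptophan). Arrays of the groups did not overlap for Yars and Gars. Those 2 genes hold C/EBP-ATF letters in the windows printed above, as Iars and Tars do. The windows of Eprs, Qars and Mars, whose groups of arrays did not overlap either, held no such letters. Any link between the letters and the order of the arrays was not tested. Wars was the 1 measured cytosolic synthetase with a difference below 0.

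**Figure D3:**
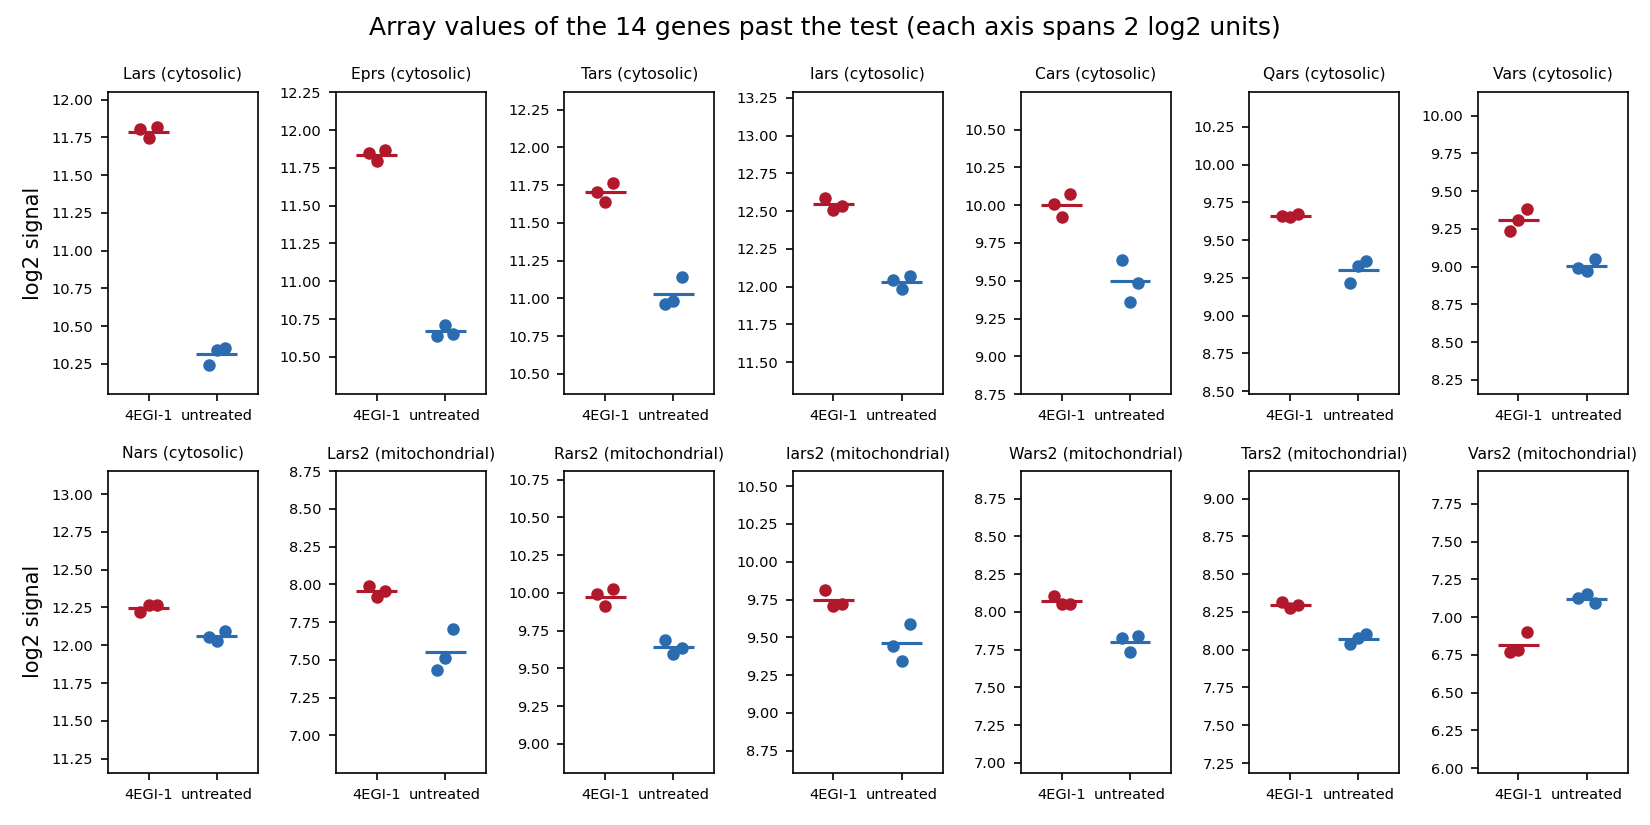
Log2 signal (vertical axis, spanning 2 log2 units in each panel) of the 14 genes that passed the test, with 3 4EGI-1 arrays on the left and 3 untreated arrays on the right, and a line at each mean. The 4EGI-1 arrays lie above the untreated arrays in 13 panels and below them in the panel of Vars2.

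Mitochondrial synthetases charge the tRNAs encoded by the mitochondrial genome and serve the synthesis of respiratory chain subunits. Lars2 (leucine) had log2 signals of 7.99, 7.91 and 7.96 with 4EGI-1 and 7.43, 7.51 and 7.70 untreated, a difference of 0.40 ± 0.08 (SE; adjusted p = 0.00791). Rars2 (arginine) had 9.99, 9.91 and 10.02 with 4EGI-1 and 9.69, 9.59 and 9.64 untreated, a difference of 0.34 ± 0.06 (SE; adjusted p = 0.00583). Both genes kept their groups apart, and in Lars2 the untreated arrays were spread more widely than the treated ones.

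Wars2 (tryptophan) had 8.10, 8.05 and 8.05 with 4EGI-1 and 7.83, 7.73 and 7.84 untreated, a difference of 0.27 ± 0.06 (SE; adjusted p = 0.0138). Iars2 (isoleucine) had 9.82, 9.70 and 9.72 with 4EGI-1 and 9.44, 9.34 and 9.59 untreated, a difference of 0.29 ± 0.08 (SE; adjusted p = 0.0320). Tars2 (threonine) had 8.31, 8.28 and 8.29 with 4EGI-1 and 8.04, 8.08 and 8.10 untreated, a difference of 0.22 ± 0.06 (SE; adjusted p = 0.0244). The groups of these 3 genes did not overlap, but their calls were less stable than those of Lars2 and Rars2. The adjusted p of Wars2 was 0.0521 without untreated replicate 2. The call of Tars2 was lost without any 1 of the 6 arrays (adjusted p = 0.0515 to 0.0735), and with the replicate number as a block (adjusted p = 0.0561). That of Iars2 was lost without any 1 array except untreated replicate 3 (adjusted p = 0.0575 to 0.102), and with every probe set in the fit (adjusted p = 0.0737). The count of risen mitochondrial genes was 2 rather than 5 when untreated replicate 2 was left out. It was 3 when untreated replicate 1, or either of 4EGI-1 replicates 1 and 3, was left out instead.

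Vars2, the mitochondrial valyl enzyme gene, was the 1 synthetase gene that fell. It had 6.77, 6.78 and 6.90 with 4EGI-1 and 7.12, 7.15 and 7.09 untreated, a difference of -0.31 ± 0.06 (SE; adjusted p = 0.00934). All treated arrays lay below all untreated arrays. Cars2 (cysteine) showed the same order of arrays, with a difference of -0.17 ± 0.06 (SE), and did not pass (adjusted p = 0.0849).

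The other mitochondrial genes that did not pass were spread on both sides of 0. The log2 difference was 0.26 for Ears2 (glutamate; adjusted p = 0.0542), 0.17 for Sars2, 0.16 for Pars2 (proline), 0.16 for Yars2, 0.15 for Hars2, 0.09 for Nars2 and 0.05 for Fars2. It was -0.09 for Aars2 (alanine) and -0.12 for Mars2. Groups did not overlap for Ears2, Sars2 and Yars2. Hars and Hars2 also overlap by position in the RefSeq table, and each had a probe set of its own. Whether these probe sets share signal was not examined.

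For 16 combinations of a cytosolic and a mitochondrial enzyme of the same amino acid both genes were measured. The cytosolic gene had the larger difference in 10 and the mitochondrial gene in 6. Eprs enters with both Ears2 and Pars2, and Fars2 with both Farsa and Farsb, so the combinations are not independent. The tally also includes near ties, those of phenylalanine, serine and tyrosine. Both genes rose for leucine, isoleucine and threonine, and in each of the 3 the cytosolic difference was the larger. Only the cytosolic gene passed as higher in 5 combinations: Eprs with Ears2, Eprs with Pars2, Cars with Cars2, Nars with Nars2, and Vars with Vars2. Only the mitochondrial gene did so for arginine and tryptophan. In the remaining 6 combinations neither gene rose.

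The log2 gap between the cytosolic and the mitochondrial gene was larger in every 4EGI-1 array than in every untreated array in 8 combinations. It was smaller in every 4EGI-1 array in 2, those of arginine and tryptophan. The share of other gene pairs with such an order was not computed, and the 8 include Eprs with both Ears2 and Pars2. For single genes, all 4EGI-1 arrays lay above all untreated arrays in 17.0% of all genes and below them in 20.8%. The largest changes of the gap between cytosolic and mitochondrial gene were 1.07 for leucine, 1.01 for Eprs over Pars2 and 0.92 for Eprs over Ears2. For cysteine the gap changed by 0.68 and for valine by 0.61, and in both the differences of the 2 genes had opposite signs, though Cars2 did not pass. For serine, tyrosine and phenylalanine the 2 genes' differences lay within 0.03 of each other. Whether the cytosolic and mitochondrial sets respond differently was not tested, since the genes are not replicates.

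**Figure D4:**
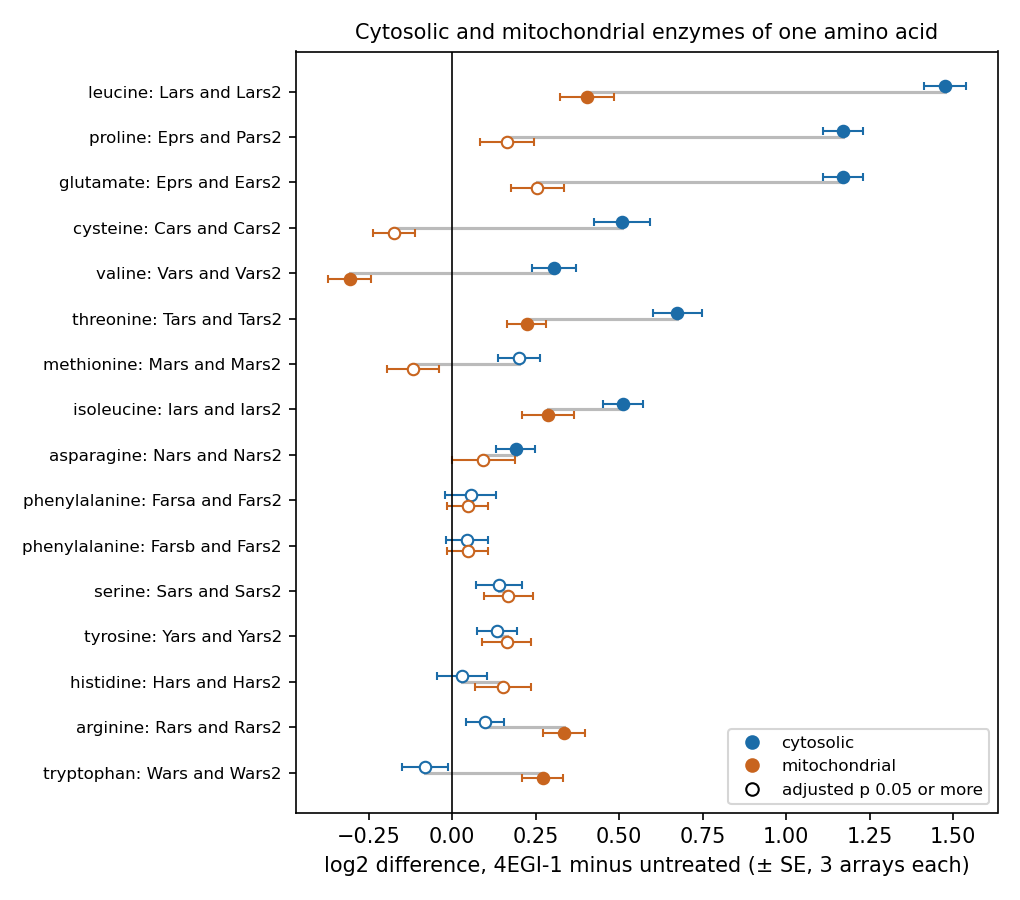
Log2 difference, 4EGI-1 minus untreated (horizontal axis, bars of 1 SE, 3 arrays per group), of the cytosolic and the mitochondrial gene for each amino acid with both measured; filled points passed at an adjusted p under 0.05. The cytosolic gene lies furthest to the right of its mitochondrial partner for leucine, at 1.47 against 0.40, and to its left for tryptophan, at -0.08 against 0.27.

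Synthetases fall into structural classes I and II, which differ in the fold of the catalytic core. Of 18 measured class I genes 9 rose (50.0%) and 1 fell (5.56%). Of 15 measured class II genes 3 rose (20.0%) and 0 fell. Over all genes 11.5% were higher and 11.5% lower. Eprs holds a catalytic core of each class and is in neither count. The median log2 difference was 0.26 for class I and 0.12 for class II, and the difference between the classes was not tested. Within the cytosolic genes 5 of 9 of class I and 2 of 8 of class II rose. Within the mitochondrial genes 4 of 9 of class I and 1 of 7 of class II rose. The last share, 14.3%, lay near that of all genes.

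Other genes of tRNA biology were described by 3 lists, and no test compared them with the synthetases. Of 15 measured genes for charging partners (complex subunits, mitochondrial transamidation, selenocysteine tRNA, editing and tRNA recycling), 2 rose and 5 fell, while 8 did not pass, with a median log2 difference of -0.16. Eef1e1, which encodes the scaffold protein AIMP3 of the multi-synthetase complex, had 10.97, 10.93 and 10.88 with 4EGI-1 and 11.21, 11.35 and 11.29 untreated, a difference of -0.35 ± 0.06 (SE; adjusted p = 0.00523). It fell, while Aimp1 and Aimp2 did not pass. Mtfmt, which formylates the mitochondrial initiator methionyl-tRNA, had 8.87, 8.68 and 8.75 with 4EGI-1 and 9.15, 9.14 and 9.29 untreated (-0.43 ± 0.08, SE; adjusted p = 0.00440). Ptrhd1 differed by -0.39, and by -0.12 (adjusted p = 0.380) with the mean of its probe sets.

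The 2 charging partners that rose were Sepsecs and Pstk. Sepsecs, which completes the conversion of seryl-tRNA to selenocysteinyl-tRNA, had 8.82, 8.70 and 8.77 with 4EGI-1 and 8.34, 8.30 and 8.23 untreated (0.48 ± 0.07, SE; adjusted p = 0.00130). Pstk, the kinase of the preceding step, had 8.69, 8.45 and 8.56 with 4EGI-1 and 8.13, 8.15 and 8.20 untreated (0.41 ± 0.08, SE; adjusted p = 0.00584). The treated arrays of both genes lay above the untreated ones. Eefsec and Secisbp2, which act in selenocysteine insertion and are in the same list, did not pass.

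Of 27 measured tRNA maturation genes (end processing, splicing and export), 5 rose and 9 fell, while 13 did not pass, with a median log2 difference of -0.06. Pop1 and Rpp38, both subunits of RNase P, which cuts the 5′ leader of tRNA precursors, rose by 0.66 ± 0.07 and 0.74 ± 0.12 (SE). The subunit genes of this enzyme did not move together: Rpp21 (-0.40 ± 0.07, SE) and Pop7 (-0.47 ± 0.09, SE) passed as lower. So did Rpp25l (-0.41 ± 0.10, SE), a gene related to Rpp25. These genes were named after their values were seen. Rpp14, Rpp25, Rpp30, Rpp40, Pop4 and Pop5 of the same list did not pass. Among the other genes that fell, Zbtb8os (archease, a cofactor of the tRNA ligase) differed by -0.69 ± 0.07, the RNA kinase gene Clp1 by -0.58 ± 0.07 and the ligase subunit gene Rtraf by -0.42 ± 0.06 (SE). Pop1, Rpp38, Zbtb8os, Clp1 and Rtraf had the smallest adjusted p of the list.

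Of 63 measured tRNA modification genes, 17 rose and 4 fell, while 42 did not pass, with a median log2 difference of 0.05. Trit1, which adds an isopentenyl group beside the anticodon, had 9.69, 9.56 and 9.66 with 4EGI-1 and 8.63, 8.40 and 8.58 untreated (1.10 ± 0.08, SE; adjusted p = 8.26e-05). Thada, a gene whose yeast relative takes part in tRNA methylation, rose by 0.90 ± 0.06, and the methyltransferase genes Nsun3 and Nsun6 by 0.85 ± 0.07 and 0.77 ± 0.07 (SE). Trmt1l, a relative of the guanosine methyltransferase gene Trmt1, rose by 0.77 ± 0.07 (SE). The share higher was 27.0% in this list, 13.3% among charging partners and 18.5% among maturation genes, beside the 11.5% of all genes. The share lower was 6.35% in this list and 33.3% in each of the other 2 lists, beside 11.5% of all genes.

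**Figure D5:**
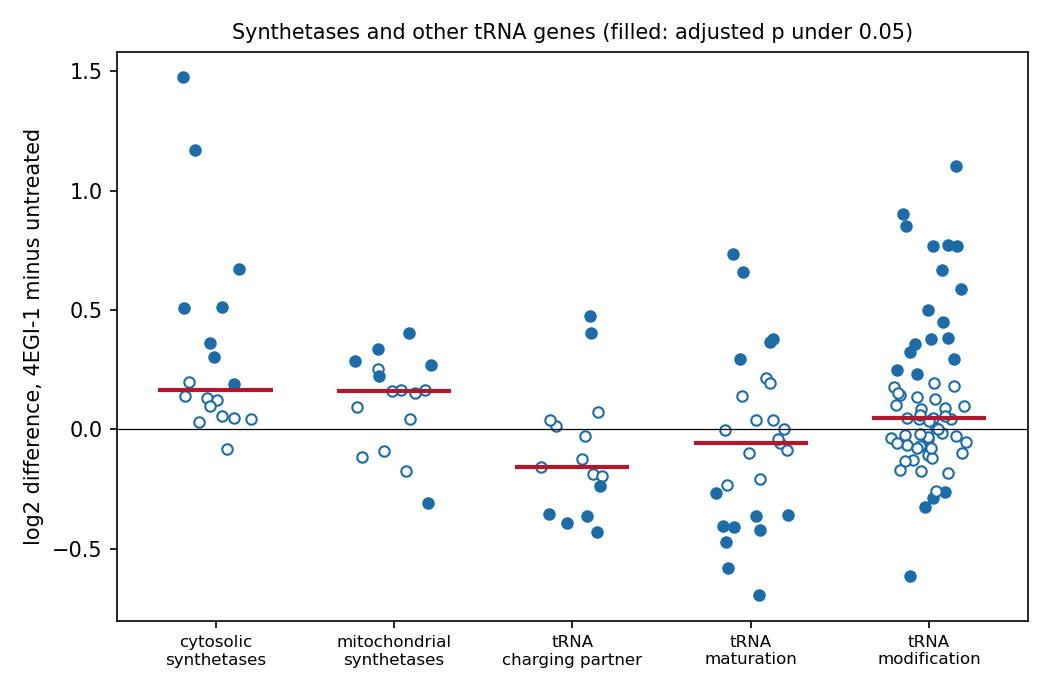
Log2 difference, 4EGI-1 minus untreated (vertical axis), of each gene of the 2 synthetase sets and of 3 other tRNA gene lists; filled points passed at an adjusted p under 0.05 and red lines are medians. Charging partners have the lowest median, -0.16, and the synthetase sets the highest, 0.16 each.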

How the data were processed

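Values were measured on 1 array per sample, 3 with 4EGI-1 and 3 untreated, grouped by sample title. The authors made log2 signals with RMA, per the submitters' processing notes, and deposited 1 value per probe set and array. The sources used here do not give its version or settings. RMA normalizes between arrays, so differences are relative to the other probe sets. Per the labels' protocols, fractions were pooled before labelling.

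Of 34760 probe sets, 21640 had 1 gene symbol in the platform annotation, 1321 several and 11799 were not listed. Symbols were updated by Entrez identifier (21553 matched) with RefSeq of GRCm38.p6, used for names and overlaps. The brightest probe set of each symbol was kept, giving 19937 genes; of the members only Iars had several. Differences were fitted with limma 3.58.1 (lmFit, eBayes) in R 4.3.3, two-sided, with Benjamini-Hochberg adjustment over all genes. SE is moderated (8.15 degrees of freedom), with a median of 0.0781. The script was tested on simulated data. Members, lists and rules were chosen with earlier results of these data known. All members are named, and from each other list up to 5 genes with the smallest adjusted p, with a few further genes beside them. Protein lengths were planned and not used here. Alternatives are given at the end.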

Additional observations from a re-analysis of the deposited data

How the results depend on the processing

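There were 16 alternatives: the replicate number as a block, 2 filters on low signals, averaging probe sets, fitting each probe set, quantile normalization, median centring, array weights, a robust trended prior, a threshold of 0.01 and omission of each array in turn. Of the 14 genes called, 9 kept the call in all 16, and 10 in the 15 at 0.05. The calls of Nars, Tars2, Iars2, Wars2 and, at 0.01, Vars were lost in at least 1, always with the same sign. Of 22 members that did not pass, 5 passed in at least 1 alternative (Mars, Ears2, Gars, Yars2 and Cars2). The threshold of 0.01 gave 2736 in place of 4573 genes called over the whole table, and 2 higher mitochondrial genes. The filter at the median signal gave 2 lower mitochondrial genes. Leaving out 1 array gave 2 to 4 higher mitochondrial genes and a median mitochondrial difference of 0.11 to 0.20 (0.11 without untreated replicate 2). Signs turned without 1 array in 4 genes that did not pass: Aimp1 (-0.0604 to 0.064), Aimp2 (-0.0808 to 0.0423), Farsa (-0.0011 to 0.10) and Hars (-0.0264 to 0.0733). The cause of these shifts was not tested. Deviations of same-numbered arrays correlated at 0.061, 0.107 and -0.021, and those of differently numbered arrays at -0.109 to 0.055. Whether the replicate numbers pair the arrays is therefore not settled. With the replicate block 4071 were called, with 7 cytosolic and 5 mitochondrial genes higher. Detection calls were not used here, so how far signal over background limits the dimmer genes is not known.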
